A study of Mus musculus with 4 samples.

Results

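Of 615612 autosomal tiles of 4 kb in the mm8 mouse genome, 1201 (0.195%) carried both H3K4me3 and H3K27me3 in MDER 10T fibroblasts. A tile entered this set when it held at least 15 reads of each mark and when each mark, scaled to the autosomal total of the whole-cell extract (WCE), reached at least 2 times the larger of the WCE count and 3 reads. The H3K4me3 criterion of this rule alone was passed by 16756 tiles (2.72%) and the H3K27me3 criterion by 19750 tiles (3.21%). The set therefore made up 7.17% of the tiles passing the H3K4me3 criterion (95% exact binomial interval 6.78 to 7.57%) and 6.08% of those passing the H3K27me3 criterion (5.75 to 6.42%). The tiles were chosen by their H3K4me3, H3K27me3 and WCE counts, so these counts are given as a description, with no test.

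Each of 4 libraries came from MDER 10T cells, which the series title describes as fibroblasts with an estrogen-inducible MyoD1. Chromatin was immunoprecipitated with Abcam antibodies against H3K4me3, H3K27me3 or H3K9me3, and WCE was sequenced without an antibody. The medium was DMEM/F12 that held 10% FCS and lacked phenol red, and the labels name no estrogen treatment and no clone. With 1 library per group there is no replicate spread, and intervals cover counting error only, since reads amplified by PCR without molecular identifiers are not independent molecules. Calls from a test therefore compare these libraries, not conditions. After collapsing repeated positions, 3086567 H3K4me3, 2933567 H3K27me3, 2101444 H3K9me3 and 2977697 WCE autosomal reads were used, a mean of 3.41 to 5.01 reads per tile. Repeated positions made up 4.57 to 5.98% of the reads in tiles with both marks and 5.93 to 8.38% of the reads over all autosomal tiles. The files hold read positions and no RNA, so the labelled fibroblast type was not checked against marker genes. Regions are named by position because gene positions were at hand for GRCm38.p6 only.

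H3K4me3 is laid down by Trithorax-group methyltransferases and is typical of promoters that are active or ready for use, which often lie at CpG islands. H3K27me3 is laid down by Polycomb repressive complex 2 and marks silenced developmental genes, often in broad domains. Promoters with both marks are called bivalent and were described in embryonic stem cells, where many of them control lineage choice. Reads pooled over a culture cannot tell apart both marks on the same chromosome and 1 mark in some cells or alleles with the other mark in the rest.

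Most tiles with both marks held fewer H3K4me3 reads than the median of other H3K4me3 tiles, and their median H3K27me3 count was above that of other H3K27me3 tiles. The median tile with both marks held 33 H3K4me3 reads (range 15 to 270), where tiles passing the H3K4me3 criterion only held a median of 73. It held 28 H3K27me3 reads (range 15 to 138), where tiles passing the H3K27me3 criterion only held a median of 20. Mean WCE was also higher than in those tiles, at 9.27 against 7.30 reads. Pooled over the 1201 tiles, H3K4me3 was 4.74 times WCE (4.65 to 4.84) and H3K27me3 was 3.67 times WCE (3.59 to 3.74). H3K4me3 had the higher scaled ratio in 671 tiles, and in 566 tiles (47.1%) the marks lay within 1.5-fold of each other. Both ratios reached 4 in 187 tiles (15.6%).

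The counts behind many single tiles were small. A one-sided exact binomial test against WCE over all autosomal tiles, Benjamini-Hochberg adjusted, called 2.39% of tested tiles for H3K4me3 and 0.672% for H3K27me3 at an adjusted p under 0.05 and a ratio of at least 2. Among the 1201 tiles, 694 were called for H3K4me3, 493 for H3K27me3 and 292 for both. The test used the reads that chose the tiles, so these numbers describe how many counts lie behind a tile and are no evidence for either mark. Just inside the threshold, 27 H3K4me3 and 28 H3K27me3 reads stood against 13 of WCE on chromosome 2 at 180880001, and 27 and 33 against 13 on chromosome 15 at 83352001. Just outside it, the tile on chromosome 3 at 93528001 held 29 reads of H3K4me3, 91 of H3K27me3 and 14 of WCE, and the tile on chromosome 18 at 25680001 held 31, 32 and 15.

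Ratios were lower in reads that had not chosen the tiles. For this measure, reads at odd deposited positions chose tiles (at least 8 reads of each mark, WCE floor 1.5) and reads at even positions measured them. In the 1790 tiles chosen so, the H3K4me3 ratio was 5.83 in the choosing reads and 3.55 (3.48 to 3.63) in the held-out reads, and the H3K27me3 ratio was 3.76 and 2.10 (2.05 to 2.15). Mean WCE was 4.06 reads per tile in the choosing reads and 6.25 in the held-out reads. In the held-out reads 488 of these tiles (27.3%) met both criteria again. Both criteria were met there by 570 of 15999 tiles chosen for H3K4me3 only (3.56%). Of 21385 tiles chosen for H3K27me3 only, 308 (1.44%) met both. Tiles chosen for H3K4me3 only had a held-out H3K27me3 ratio of 0.761 (0.754 to 0.767), and tiles chosen for H3K27me3 only had a held-out H3K4me3 ratio of 0.717 (0.709 to 0.724). Enrichment of both marks was thus also seen in reads that had not chosen the tiles, at a lower level. The held-out H3K27me3 ratio of 2.10 was not above that of tiles chosen for H3K27me3 only, 2.17 (2.15 to 2.19).

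**Figure D1:**
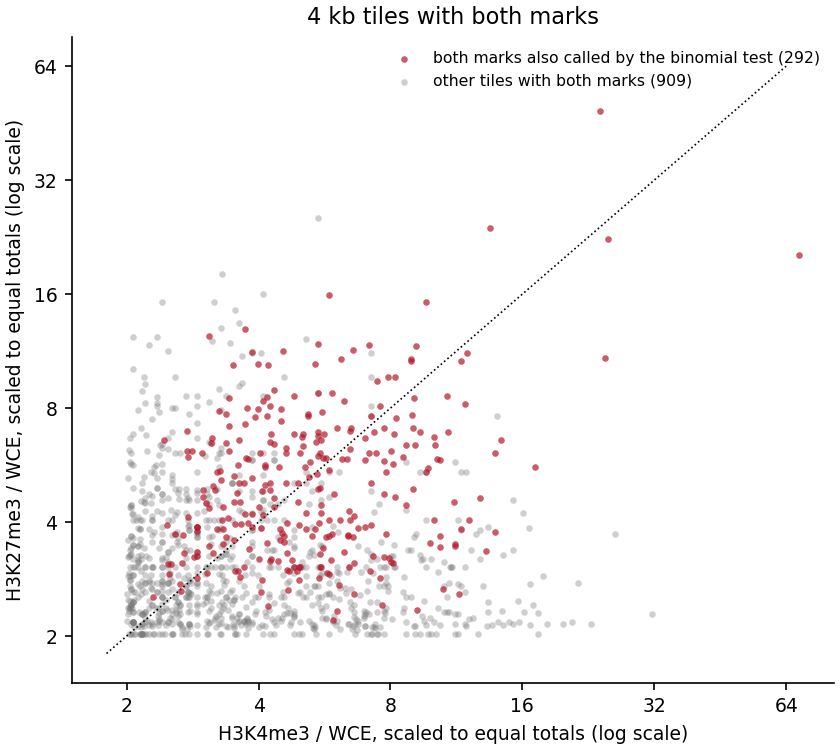
Scaled ratio of H3K4me3 to WCE (horizontal) and of H3K27me3 to WCE (vertical), both on log scales, for the 1201 tiles with both marks; each point is a tile and the dotted line marks equal ratios. The 292 red tiles were also called for each mark by the binomial test, and the 909 grey tiles crowd near the thresholds of 2.

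The 10 tiles with the highest smaller ratio of the pair were led by one on chromosome 3 from 8648001 to 8652000. It held 62 H3K4me3, 55 H3K27me3, 12 H3K9me3 and 5 WCE reads, which gave ratios of 12.0 (4.86 to 38.1) for H3K4me3 and 11.2 (4.51 to 35.7) for H3K27me3. On chromosome 11 from 108736001 to 108740000, 77 H3K4me3 and 32 H3K27me3 reads stood against 3 WCE reads, with ratios of 24.8 (8.16 to 123) and 10.8 (3.39 to 55.3). The wide intervals come from the few WCE reads.

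The best counted of these 10 lay on chromosome 6. The tile at 30124001 held 120 H3K4me3, 138 H3K27me3, 32 H3K9me3 and 13 WCE reads, the most H3K27me3 reads of any tile with both marks, with ratios of 8.91 (5.01 to 17.2) and 10.8 (6.10 to 20.7). The tile at 72164001 held 123 H3K4me3, 81 H3K27me3, 31 H3K9me3 and 10 WCE reads, with ratios of 11.9 (6.24 to 25.4) and 8.22 (4.25 to 17.8). In both tiles the lower bound of each ratio stayed above 4.

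Chromosome 11 supplied 4 of the 10 named tiles. Besides the tile at 108736001 they were at 69748001 (28 H3K4me3, 47 H3K27me3 and 2 WCE reads), at 90204001 (37, 42 and 4) and at 62352001 (67, 51 and 6). The tiles on chromosome 19 at 37240001 (47, 42 and 5), on chromosome 8 at 86764001 (51, 57 and 6) and on chromosome 5 at 108604001 (25, 48 and 1) complete the 10. The last had ratios of 24.1 (3.95 to 990) and 48.7 (8.34 to 1964), with a single WCE read behind both.

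How often a tile with one mark also had the other depended on the level of the first. Of H3K4me3 tiles with 15 to 29 reads 15.3% (14.2 to 16.6%) had both marks, of those with 30 to 59 reads 10.2% (9.25 to 11.2%), of those with 60 to under 120 reads 3.97% (3.47 to 4.52%) and of those with 120 or more 1.46% (1.11 to 1.89%). Mean WCE in these classes was 7.46, 11.4, 14.0 and 19.5 reads per tile, while mean H3K27me3 was 10.97, 12.0, 11.2 and 14.1 reads. Mean H3K27me3 counts thus differed less between the classes than mean WCE counts, and the H3K27me3 ratio over all tiles in the classes was 1.49, 1.07, 0.814 and 0.735.

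In the other direction the share grew with the level of the mark. Both marks were present in 4.02% (3.73 to 4.34%) of H3K27me3 tiles with 15 to 29 reads, in 14.5% (13.3 to 15.8%) of those with 30 to 59 and in 32.5% (27.5 to 37.8%) of those with 60 or more. Here mean H3K4me3 was 7.02, 15.3 and 26.98 reads per tile, against mean WCE of 6.78, 10.4 and 12.3 reads, so H3K4me3 counts grew more than WCE counts. The strongest H3K27me3 tiles thus carried H3K4me3 most often, at a ratio of 2.12 (2.05 to 2.20) over all 335 of them.

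**Figure D2:**
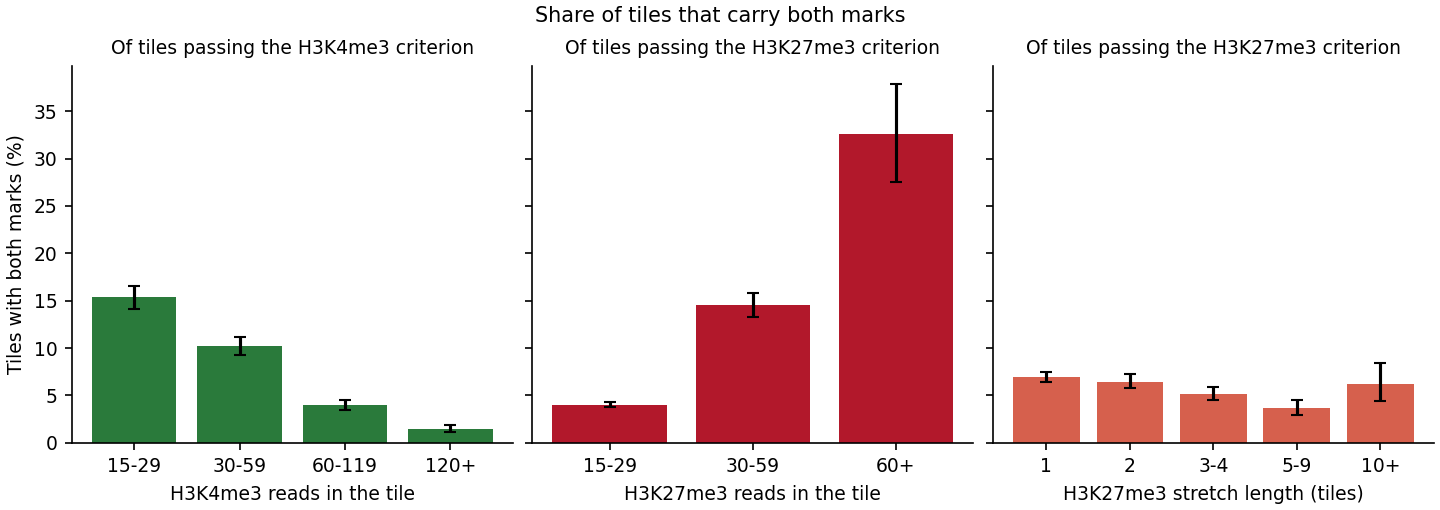
Percentage of tiles with both marks among tiles passing the H3K4me3 criterion, by H3K4me3 reads (left), and among tiles passing the H3K27me3 criterion, by H3K27me3 reads (middle) and by length of the H3K27me3 stretch in tiles (right); bars start at 0 and error bars are 95% exact binomial intervals. The share is 15.3% at the lowest and 1.46% at the highest H3K4me3 level, and 4.02% at the lowest and 32.5% at the highest H3K27me3 level.

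Inside the tile reads of both marks mostly lay close together, with H3K4me3 in a narrow peak and H3K27me3 more widely spread. The distance between the read at the quartile nearest the start and the read at the opposite quartile had a median of 621 bp for H3K4me3 and 1381 bp for H3K27me3, where evenly spread reads would give 2000 bp. These spans were not particular to tiles with both marks. In tiles with the H3K4me3 criterion only they were 577.5 and 1289 bp, with H3K27me3 at 0.771 times WCE. In tiles with the H3K27me3 criterion only they were 1284 and 1693 bp. The median positions of the marks were 385 bp apart in the median tile (quartiles 148.5 and 783.5 bp) and within 500 bp in 723 tiles (60.2%). As a yardstick, the medians of odd and even positions of a single mark were 100 bp apart for H3K4me3 and 279 bp for H3K27me3, each from only part of the reads. The marks were over 1000 bp apart in 189 tiles (15.7%) and over 1500 bp apart in 68. No such distance is given for WCE or H3K9me3, whose reads were also denser where H3K4me3 was densest (below).

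No gap in H3K27me3 was seen at the H3K4me3 summit. The summit was the 200 bp bin richest in H3K4me3 over itself and its neighbours, and H3K27me3 held 3.21 reads per bin in the 600 bp around it, against 1.42 in the rest of the tile, a ratio of 2.26 (2.21 to 2.31). WCE itself was denser there, by 2.08 times (1.99 to 2.17), and H3K9me3 by 2.38 times (2.29 to 2.47). H3K27me3 was thus denser at the summit by a factor between those of WCE and H3K9me3. In tiles passing the H3K4me3 criterion only, these ratios were 2.67 for H3K27me3, 3.03 for H3K9me3 and 2.53 for WCE.

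Relative to WCE, H3K4me3 fell away from the summit faster than H3K27me3. H3K4me3 was 10.3 times WCE within 200 bp of the summit bin, 4.50 times at 400 to 1000 bp, 2.16 times at 1200 to 2000 bp and 1.24 times at 2200 to 5000 bp. H3K27me3 was 3.81, 3.37, 2.99 and 2.16 times WCE over the same distances, and 1.74 times (1.71 to 1.76) at 5200 to 10000 bp. In held-out reads H3K27me3 was level across the tile, at 2.15 (2.06 to 2.25), 2.07 (1.996 to 2.14) and 2.04 (1.97 to 2.11) times WCE up to 2000 bp, and 1.74 (1.70 to 1.78) at 2200 to 5000 bp. Around summits of tiles with the H3K4me3 criterion only, H3K27me3 was 0.796 times WCE at the summit, 0.676 at 400 to 1000 bp and 0.812 at 1200 to 2000 bp.

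**Figure D3:**
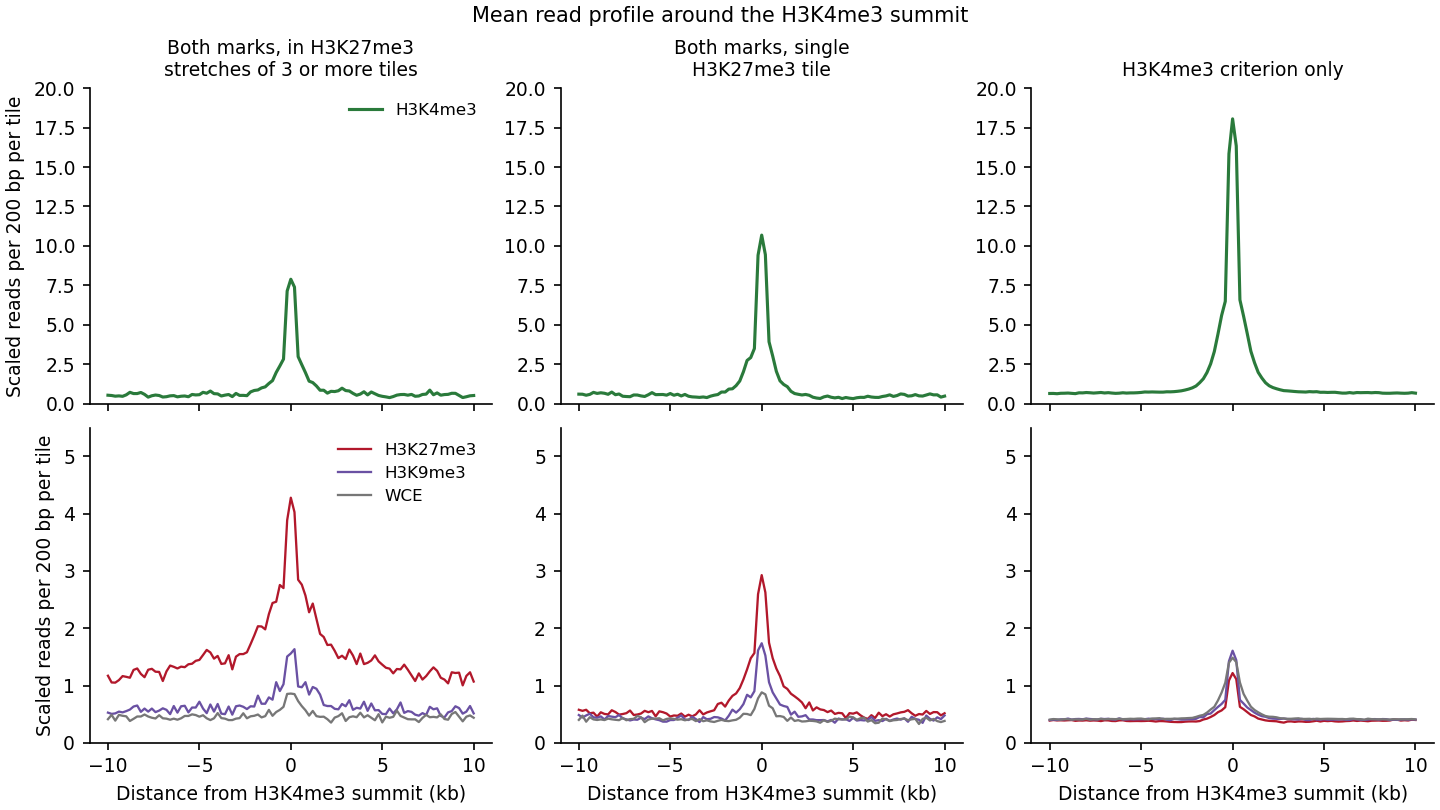
Mean reads per 200 bp and tile, scaled to the WCE total, against distance from the H3K4me3 summit (kb), for tiles with both marks in H3K27me3 stretches of 3 or more tiles, for tiles with both marks that are a single H3K27me3 tile, and for tiles passing the H3K4me3 criterion only; H3K4me3 is in the top row, the other libraries below. H3K27me3 peaks at the summit in each column, but in the third column it lies at or below WCE. In the first column it stays above WCE out to 10 kb. In the second column it is 1.26 times WCE at 5200 to 10000 bp.

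At 200 bp, H3K27me3 reads were denser in bins with more H3K4me3 reads, as were the reads of H3K9me3 and WCE. Of 24020 bins in the 1201 tiles, 47.9% held no H3K4me3 read, and in these H3K27me3 was at 0.599 times its own tile mean. In bins with 3 to 5 H3K4me3 reads it was at 1.41 times the tile mean, and in bins with 11 or more at 2.31 times. WCE went through 0.713, 1.30 and 2.07 times its tile mean in the same bins, and H3K9me3 through 0.602, 1.38 and 2.44. From the emptiest to the fullest bins, H3K27me3 and H3K9me3 thus ran over a wider range than WCE. Tiles with the H3K4me3 criterion only had the same course, with H3K27me3 at 0.569 times its tile mean in bins without H3K4me3 and 2.15 times in bins with 11 or more.

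A few tiles did hold the marks side by side. Among the 364 tiles with at least 30 reads of each mark, the largest separation was on chromosome 16 from 17824001 to 17828000, where 46 reads of H3K4me3 and 36 of H3K27me3 stood beside 6 of WCE. Its median H3K4me3 read lay 655 bp from the tile start and its median H3K27me3 read 3314.5 bp from it. On chromosome 11 at 69236001, 46 H3K4me3 reads had their median at 296.5 bp and 30 H3K27me3 reads at 2792.5 bp. In both tiles H3K4me3 was densest near the start. H3K27me3 was densest at the end of the tile on chromosome 16, with 11 reads in the last 200 bp. In the tile on chromosome 11 it was scattered from the middle onwards, with at most 5 reads per 200 bp.

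The next in separation were on chromosome 11 at 97348001 (2390 bp apart, 37 H3K4me3, 79 H3K27me3 and 13 WCE reads), chromosome 19 at 37240001 (1916 bp) and chromosome 11 at 103176001 (1885 bp). The smallest separations were found on chromosome 6 at 115956001, where both medians lay at 3550 bp with 117 H3K4me3, 40 H3K27me3 and 15 WCE reads, on chromosome 6 at 48324001 (0.5 bp apart) and on chromosome 2 at 74936001 (4 bp apart). In the first of these, reads of both marks piled up at the end of the tile.

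**Figure D4:**
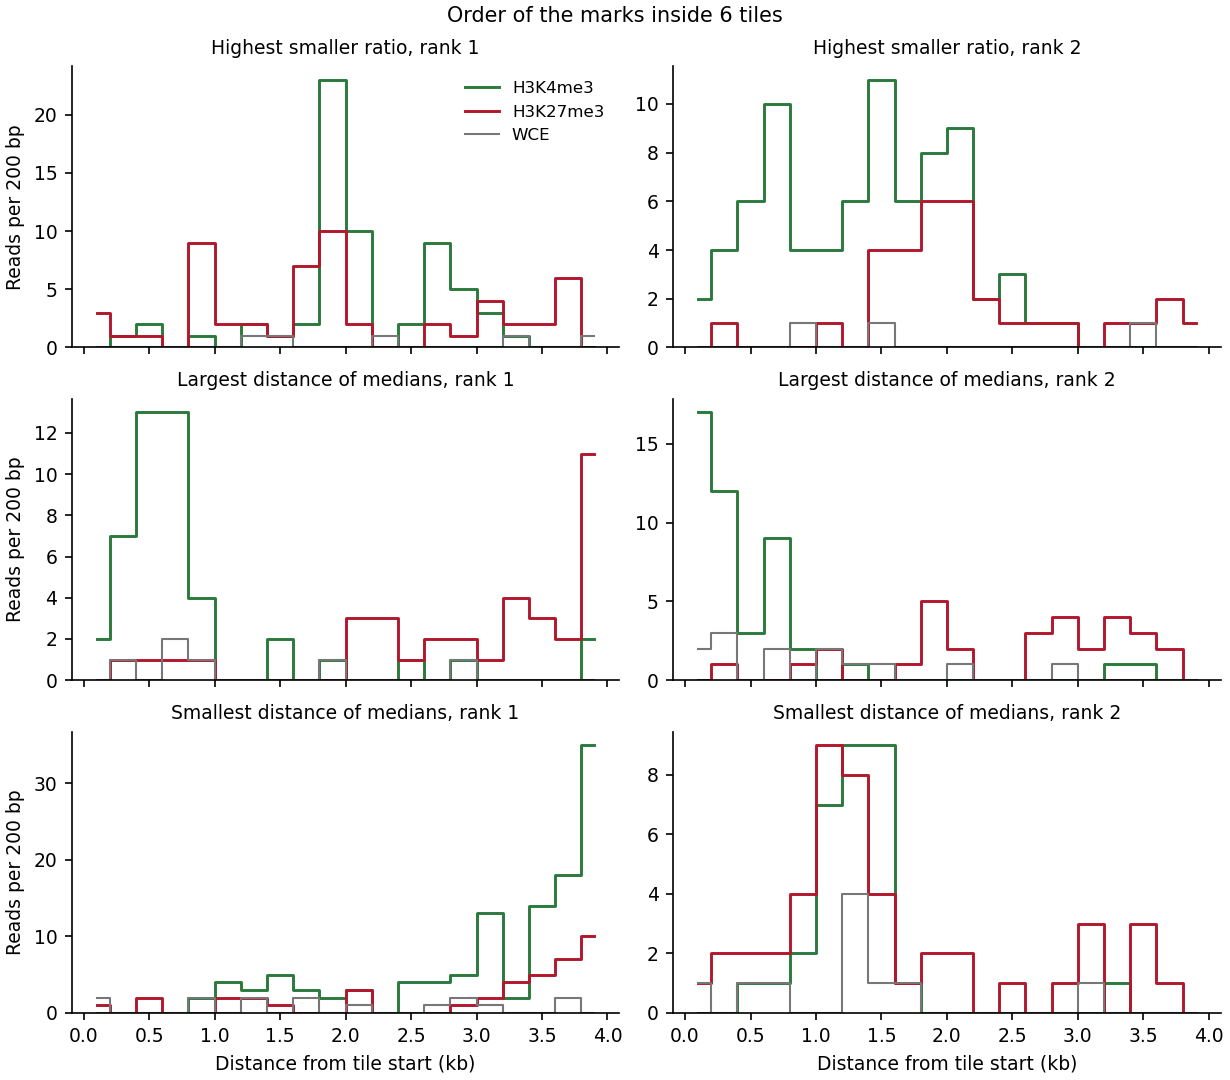
Reads per 200 bp of H3K4me3 (green), H3K27me3 (red) and WCE (grey) against distance from the tile start (kb) in 6 tiles named by rule: highest smaller ratio (top row), largest distance between the median positions (middle row) and smallest distance (bottom row). In the middle row H3K4me3 lies near the tile start and H3K27me3 mostly from the middle of the tile onwards. In the bottom row their summits coincide or nearly so.

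Beside the tiles, H3K4me3 dropped sharply while H3K27me3 declined slowly. In the adjoining tiles, whose own reads did not enter the choice of the tile, H3K4me3 was 1.70 times WCE (1.67 to 1.73) and H3K27me3 2.06 times (2.03 to 2.09). At 8 kb they were 1.24 and 1.73 times WCE, and at 40 kb 1.41 and 1.38 times. Without adjoining tiles that themselves had both marks, H3K27me3 beside the tiles was 1.89 times WCE (1.86 to 1.92).

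Beside tiles with both marks, H3K4me3 was lower than beside H3K4me3 tiles and higher than beside H3K27me3 tiles, while H3K27me3 was lower than or close to the level beside H3K27me3 tiles and higher than beside H3K4me3 tiles. The H3K4me3 ratio of 1.70 next to tiles with both marks stood against 2.84 (2.82 to 2.85) next to tiles with the H3K4me3 criterion only and 0.894 (0.889 to 0.898) next to tiles with the H3K27me3 criterion only, and 13.5% of neighbours passed the H3K4me3 criterion, against 25.8% beside the H3K4me3 tiles. The H3K27me3 ratio of 2.06 stood against 2.15 (2.14 to 2.16) next to tiles with the H3K27me3 criterion only and 0.857 (0.852 to 0.861) next to tiles with the H3K4me3 criterion only. At 40 kb it was 1.38 (1.35 to 1.41), against 1.59 (1.58 to 1.60) and 1.07 (1.06 to 1.07). Of neighbours, 31.8% passed the H3K27me3 criterion beside tiles with both marks and 37.5% beside tiles with the H3K27me3 criterion only. Around the 292 tiles with both marks that the binomial test also called, H3K27me3 was 2.65 times WCE (2.57 to 2.74) and 44.9% of neighbours passed, above the values beside H3K27me3 tiles, which were not restricted to called ones. These are differences between tiles of the same libraries, with no replicate test.

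H3K4me3 was higher on the side of a tile that was richer in H3K27me3. In 486 tiles, 1 adjoining tile held at least 2 times as many H3K27me3 reads as the other. There H3K4me3 was 2.42 times WCE (2.34 to 2.50) on the richer side and 1.15 times (1.101 to 1.20) on the poorer side. The sides were chosen by their H3K27me3 reads, so the H3K27me3 difference between them follows from the choice. Mean WCE also differed, at 9.41 reads on the richer side and 7.17 on the poorer side. Over all 1166 tiles with a richer side, without the 2-fold limit, the H3K4me3 ratios were 1.996 (1.95 to 2.04) and 1.36 (1.32 to 1.39). Inside the 486 tiles the median H3K4me3 read lay 567 bp from the tile centre towards the richer side and the median H3K27me3 read 470 bp. H3K27me3 was the mark nearer the richer side in 216 of 485 untied tiles (44.5%, 40.1 to 49.1%). Both marks thus lay towards the same side. Over all tiles with both marks, H3K27me3 reads spread more widely between quartiles than H3K4me3 reads (1381 against 621 bp). Within a 4 kb tile this draws the H3K27me3 median towards the centre, so medians cannot decide which mark lay further out.

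**Figure D5:**
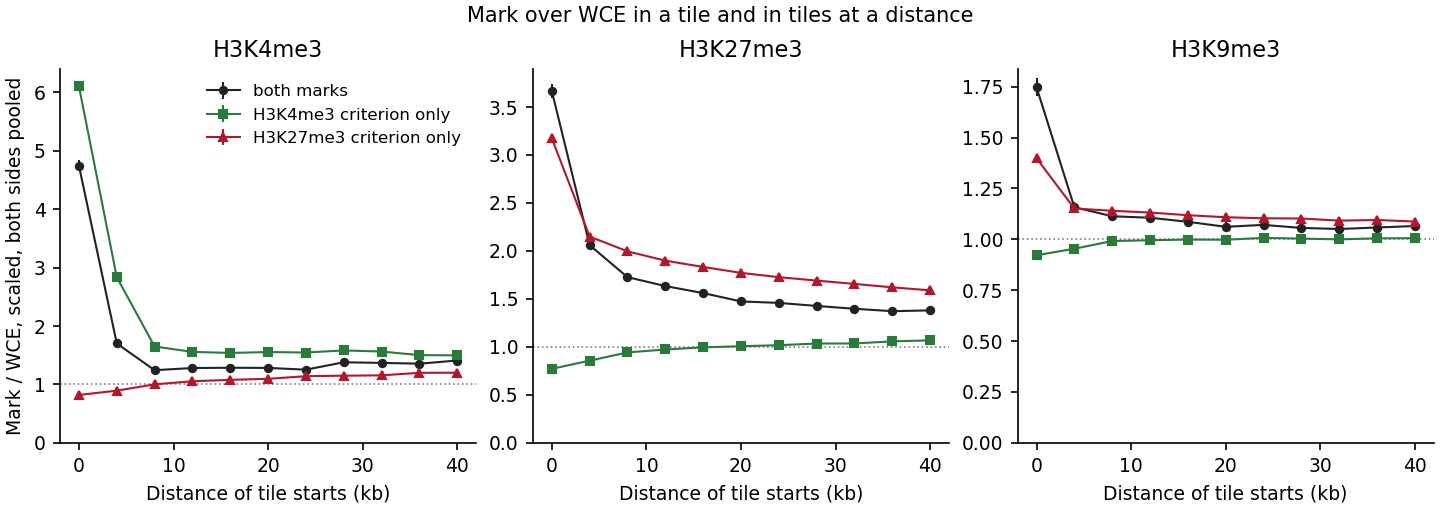
Scaled ratio of H3K4me3, H3K27me3 and H3K9me3 to WCE against distance between tile starts (kb, both sides pooled) for tiles with both marks (black), with the H3K4me3 criterion only (green) and with the H3K27me3 criterion only (red); error bars are 95% exact intervals for counting error. At 4 kb, H3K4me3 is 1.70 beside tiles with both marks and 2.84 beside H3K4me3 tiles, and H3K27me3 is 2.06 and, beside H3K27me3 tiles, 2.15.

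Most tiles with both marks had no other such tile within 100 kb, while few lacked the far more numerous H3K4me3 or H3K27me3 tiles there. Tiles with both marks were still more frequent near each other than over all tiles. Both marks were present in 5.08% of adjoining tiles, 1.75% of tiles at 8 kb and 0.916% at 40 kb, against 0.195% of all autosomal tiles. Around tiles with the H3K27me3 criterion only, these shares were 1.73, 1.33 and 0.873%. Around tiles with the H3K4me3 criterion only, they were 0.653, 0.376 and 0.489%. At 40 kb the share was thus close to that around tiles with the H3K27me3 criterion only. The 1201 tiles formed 1140 runs, of which 1086 were a single tile, 50 were pairs and 4 were longer. The nearest other tile with both marks was a median of 244 kb away (quartiles 52 and 732 kb), and 791 tiles (65.9%, 63.1 to 68.5%) had none within 100 kb. Another H3K27me3 tile lay within 100 kb of 88.3% of them and another H3K4me3 tile within 100 kb of 88.4%, and for 40 tiles (3.33%) neither did.

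An H3K27me3 tile was absent within 100 kb of 11.7% (9.90 to 13.6%) of tiles with both marks, against 4.29% (4.004 to 4.59%) of other H3K27me3 tiles and 33.7% (32.9 to 34.4%) of other H3K4me3 tiles. Another H3K4me3 tile was absent within that distance of 11.6% (9.82 to 13.5%) of tiles with both marks, against 7.43% (7.02 to 7.86%) of other H3K4me3 tiles. The tile farthest from any other H3K27me3 tile, on chromosome 1 at 5008001, was 7964 kb away from it and held 140 H3K4me3, 44 H3K27me3, 14 H3K9me3 and 13 WCE reads, with ratios of 10.4 (5.88 to 19.999) and 3.44 (1.82 to 6.95).

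The other 4 of the most isolated tiles had fewer reads. They lay on chromosome 9 at 8132001 (32 reads of H3K4me3, 15 of H3K27me3 and 6 of WCE), chromosome 4 at 75920001 (16, 20 and 7), chromosome 3 at 22264001 (40, 15 and 5) and chromosome 8 at 60212001 (17, 30 and 5). For the first and second of these, an interval of at least 1 ratio reached below 1. The site on chromosome 1 had the most H3K4me3 and H3K27me3 reads of these 5.

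The longest run covered 20 kb of chromosome 11 from 96096001 to 96116000. Its 5 tiles held 45, 72, 19, 77 and 39 H3K4me3 reads, 88, 73, 29, 67 and 78 H3K27me3 reads, and 10, 16, 9, 9 and 11 WCE reads. Over the run H3K4me3 was 4.42 times WCE (3.29 to 6.03) and H3K27me3 6.18 times (4.64 to 8.38). Both marks dipped in the same middle tile.

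The run on chromosome 14 from 20768001 to 20784000 was dominated by H3K4me3. Its 4 tiles held 52, 262, 112 and 56 H3K4me3 reads, 33, 56, 44 and 34 H3K27me3 reads, and 5, 22, 15 and 14 WCE reads, with ratios of 8.30 (6.29 to 11.2) and 3.03 (2.22 to 4.17). Of the remaining long runs, chromosome 2 from 73072001 to 73084000 had 3 tiles with 48, 43 and 21 H3K4me3 reads and 113, 61 and 18 H3K27me3 reads. The run on chromosome 3 from 89400001 to 89412000 had 67, 60 and 42 H3K4me3 reads and 25, 81 and 28 H3K27me3 reads. The pair with most reads, on chromosome 11 from 119360001 to 119368000, held 71 and 99 H3K4me3 reads, 113 and 113 H3K27me3 reads, 45 and 32 H3K9me3 reads, and 21 and 28 WCE reads. H3K9me3 over that pair was 2.23 times WCE (1.54 to 3.25), so all 3 marks were above WCE there.

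Tiles with both marks were found on all 19 autosomes. They numbered 3.90 per 1000 tiles with reads on chromosome 11 and 3.04 on chromosome 17, but 0.964 on chromosome 16 and 0.991 on chromosome 13. As a share of H3K27me3 tiles they ranged from 4.05% on chromosome 19 to 13.6% on chromosome 3, where only 361 H3K27me3 tiles were found. At least 1 lay in 692 of 2412 megabases, and the richest 5% of megabases held 465 tiles (38.7%). The megabase with most, chromosome 9 from 57000001 to 58000000, held 9 tiles with both marks among 29 H3K4me3 and 55 H3K27me3 tiles.

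A minority of the tiles lay inside longer H3K27me3 stretches, defined as runs of at least 3 adjoining tiles that each pass the H3K27me3 criterion. These held 320 tiles with both marks (26.6%, 24.2 to 29.2%), against 34.7% (34.0 to 35.4%) of the tiles with the H3K27me3 criterion only. With 1 failing tile bridged the shares were 42.5% (39.6 to 45.3%) and 58.5% (57.8 to 59.2%), and among tiles also called by the binomial test they were 37.3% (31.8 to 43.2%) and 58.2% (56.5 to 59.9%). A further 602 tiles (50.1%, 47.3 to 53.0%) were a lone H3K27me3 tile, against 43.5% (42.8 to 44.2%) of the others. Stretches of at least 5 tiles held 10.5% of tiles with both marks and 15.6% of the others.

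Seen from the stretches, both marks were present in 6.95% (6.42 to 7.502%) of lone H3K27me3 tiles, in 5.18% (4.49 to 5.94%) of tiles in stretches of 3 or 4, in 3.66% (2.94 to 4.49%) in stretches of 5 to 9 and in 6.22% (4.44 to 8.44%) in the 50 stretches of 10 or more. Of those 50 longest stretches 24 held at least 1 tile with both marks, against 263 of all 1587 stretches of 3 or more. The intervals for inner and end tiles overlapped. H3K4me3 passed its criterion in 4.60% (3.94 to 5.33%) of inner tiles and 4.88% (4.16 to 5.69%) of end tiles, against 3.91% (3.24 to 4.66%) of the first tiles outside.

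Sites inside and outside the stretches differed in the balance and spread of the marks. The 320 tiles inside held medians of 33 H3K4me3 and 40 H3K27me3 reads, with ratios of 3.90 (3.76 to 4.06) and 4.59 (4.42 to 4.77). The 602 lone tiles held medians of 34 and 23 reads, with ratios of 5.48 (5.33 to 5.65) and 3.06 (2.97 to 3.16). H3K27me3 also defines the stretches, so its difference is a description. H3K4me3 spread over 733.5 bp between its quartiles inside the stretches and 582 bp in lone tiles, and H3K27me3 over 1531 and 1290 bp.

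H3K27me3 was higher inside stretches than at lone tiles, both at the summit and away from it. Inside stretches H3K27me3 was 4.75 times WCE (4.41 to 5.13) within 200 bp of the H3K4me3 summit bin, 4.22 times at 1200 to 2000 bp and 2.72 times at 5200 to 10000 bp. At lone tiles it was 3.25 times WCE (3.07 to 3.45) at the summit, 2.07 times at 1200 to 2000 bp and 1.26 times at 5200 to 10000 bp. The definition of a stretch partly sets these values. In held-out reads, with tiles, summits and stretches chosen on odd positions, H3K27me3 inside stretches (399 tiles) was 3.52 (3.21 to 3.87) times WCE at the summit, 3.33 (3.11 to 3.57) at 1200 to 2000 bp and 2.48 (2.40 to 2.56) at 5200 to 10000 bp. At lone tiles (1044) it was 1.60 (1.51 to 1.69), 1.4004 (1.33 to 1.47) and 1.17 (1.14 to 1.20) times WCE.

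The longest stretch with a tile of both marks covered 136 kb of chromosome 19 from 44768001 to 44904000, where 1562 reads of H3K27me3 faced 312 of WCE and the ratio was 5.08 (4.50 to 5.76). Only 1 of its 34 tiles had both marks, at 44808001, with 32 H3K4me3, 122 H3K27me3, 18 H3K9me3 and 10 WCE reads. H3K4me3 over the stretch as a whole was 0.878 times WCE (0.745 to 1.03). The single H3K4me3 site therefore stood within a stretch otherwise near or below the WCE level of that mark.

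The next 4 stretches likewise held 1 tile with both marks each. Over 84 kb of chromosome 17 from 79808001, H3K27me3 was 4.05 times WCE, and the tile at 79812001 held 17 H3K4me3, 20 H3K27me3 and 6 WCE reads. Over 76 kb of chromosome 15 from 102732001, H3K27me3 was 7.80 times WCE (6.57 to 9.30), and the tile at 102780001 held 15 H3K4me3, 85 H3K27me3 and 7 WCE reads, at the minimum for H3K4me3. The tiles in the 60 kb stretches on chromosome 2 from 151720001 and chromosome 8 from 125556001 held 43 H3K4me3, 37 H3K27me3 and 16 WCE reads, and 39, 79 and 12. H3K4me3 ratios in these 4 tiles were between 2.07 and 3.14, close to the threshold.

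H3K9me3, the heterochromatin mark that took no part in the choice, was also above WCE in tiles with both marks. Its ratio was 1.75 (1.70 to 1.79), against 0.922 (0.916 to 0.928) in tiles with the H3K4me3 criterion only and 1.398 (1.39 to 1.41) in tiles with the H3K27me3 criterion only. The same WCE reads that chose the tiles stand in this ratio, and in held-out reads it was 1.23 (1.19 to 1.26), against 0.896 (0.887 to 0.904) and 1.19 (1.18 to 1.20). The median count was 10 H3K9me3 reads (range 1 to 51) and the mean 11.4 reads, against means of 8.86 and 7.201 reads in the other classes. Next to the tiles H3K9me3 was 1.16 times WCE (1.13 to 1.18).

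By the same thresholds of 15 reads and 2-fold, 193 tiles with both marks (16.1%) passed for H3K9me3, against 0.487% of all tiles, 2.05% of tiles with the H3K4me3 criterion only and 2.58% of those with the H3K27me3 criterion only. The one-sided exact binomial test, Benjamini-Hochberg adjusted over all tiles, called 13 of the 1201 for H3K9me3 (1.08%, 0.578 to 1.84%), against 0.0209% of all tested tiles. It called 0.103% of tiles with the H3K4me3 criterion only and 0.0539% of those with the H3K27me3 criterion only. Mean WCE was 9.27 reads in tiles with both marks, against 13.6 and 7.30 reads in tiles with the H3K4me3 and the H3K27me3 criterion only, and the same WCE reads chose the tiles and stand in these calls. In held-out reads, with at least 8 reads and 2-fold, 10.4% (9.07 to 12.0%) of the tiles with both marks passed for H3K9me3, against 0.897% of all tiles. Of tiles with the H3K4me3 criterion only 3.82% (3.53 to 4.13%) passed, and of those with the H3K27me3 criterion only 3.51% (3.27 to 3.77%). In the choosing reads 17.9% (16.1 to 19.7%) of the tiles with both marks had passed.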

How the data were processed

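The authors deposited lists of signed read positions (unit other than counts, a minus sign for the reverse strand). Per the file headers, reads were aligned to mm8 with Bowtie (-l 36, -n 2, -e 70, -m 2, -k 2, best mode), and the submitters' processing notes also name Bowtie. Per the labels' protocols, chromatin averaged 500 bp, libraries had 18 cycles of PCR, and gel bands of 150 to 350 bp held inserts of 50 to 200 nt. Here only reads with 1 reported position were used, 1 per signed position, moved 60 bp along their strand and counted in 4 kb tiles from position 0 on the 19 autosomes. The deposited lists held 2335857 to 3339861 such reads per library. Strands were offset by 80 to 100 bp in the chosen tiles. Ratios are mark over WCE scaled by autosomal totals, with 95% exact conditional binomial intervals, and shares have exact (Clopper-Pearson) intervals. The binomial caller and the summit measure were tested on simulated data. Regions are named by these rules: the 10 highest smaller ratios, the 5 longest runs, the 5 largest and 3 smallest separations, the 5 most isolated tiles, the 5 longest stretches and the tiles at the threshold. The tiles, rules and alternatives were chosen with earlier results of these data known. Genes and sequences were not used here, because no mm8 annotation or genome was at hand. Alternatives changed repeated reads, shift, tiling, scaling, thresholds and the use of WCE. Computation ran in Python 3.11.15; tests came from scipy 1.17.1, arrays from numpy 2.4.6 and plots from matplotlib 3.10.9.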

Additional observations from a re-analysis of the deposited data

Results flagged for a closer look

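Reads with 2 reported positions took no part in the choice of tiles, and they too were above WCE in the 1201 tiles with both marks. H3K4me3 had 481 such reads there against 168 WCE reads, a ratio of 3.26 (2.73 to 3.91) after scaling to the totals of these reads. For H3K27me3 the counts were 341 and 168, a ratio of 2.01 (1.67 to 2.43), and for H3K9me3 200 and 168, a ratio of 1.43 (1.16 to 1.76). Each such read is listed at both of its places, so its origin is not known, and at most 174 of the tiles held one for any mark. The 481 H3K4me3 reads lay in 149 tiles, with up to 44 in 1 tile.

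The X chromosome lies outside the rule, and 14 of its tiles met both criteria when scaled by the autosomal totals. It held 453 tiles passing the H3K4me3 criterion and 43 passing the H3K27me3 criterion, so both marks were present in 3.09% of its H3K4me3 tiles and 32.6% (19.1 to 48.5%) of its H3K27me3 tiles, where autosomes had 7.17% and 6.08%.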

How the results depend on the processing

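Of 73 recomputed values, 41 stayed within 1.5 times (counts) or within the counting interval (shares and ratios), and none of the ratios crossed 1. The number of tiles with both marks, 1201, became 449 at a fold threshold of 3, 2298 at 1.5, 2127 with 10 and 364 with 30 reads of each mark, and 294 by the binomial test. It ran from 816 to 1626 under the other alternatives. The share inside H3K27me3 stretches, 26.6%, became 30.5% with scaling by 100 kb bins, 14.3% at a fold of 3, 42.5% with 1 failing tile bridged, 10.5% for stretches of 5 or more tiles and 37.3% for tiles also called by the binomial test. The share with no other such tile within 100 kb, 65.9%, became 56.7% with scaling by 100 kb bins, 82.6% at a fold of 3, 76.4% for 40 kb and 81.8% for tiles also called.

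The H3K27me3 density at the H3K4me3 summit over the rest of the tile, 2.26, became 2.35 at a fold of 3, 2.06 with the summit at the median H3K4me3 position, 2.05 with 1000 bp around it and 2.10 in held-out reads. H3K27me3 beside the tiles, 1.89 times WCE, became 1.79 with repeated reads kept, 1.78 with tiles from 2 kb, 1.96 with scaling by 100 kb bins, 2.13 at a fold of 3, 2.40 for tiles also called and 1.64 in held-out reads. The H3K9me3 ratio, 1.75, became 1.69 with scaling by 100 kb bins, 2.19 at a fold of 3, 1.67 with WCE split between the marks, 1.83 for tiles also called and 1.23 in held-out reads. The 13 H3K9me3 calls became 7 at a fold of 3, 5 at an adjusted p under 0.01 and 4 among tiles also called. Stricter rules use fewer tiles. The cause of the other shifts was not tested. The held-out values also come from another set of tiles, 1790, of which 808 were among the 1201; within those 1790 the H3K9me3 ratio was 1.90 in the choosing reads and 1.23 in the held-out reads. The tiles also called and the held-out reads were chosen after seeing the data. With a mean of 4.84 WCE reads per tile, ratios of single tiles are limited by WCE depth. No paired analysis was possible because each group holds 1 library.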
